A study of Rattus norvegicus with 9 samples.

Results

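The genes described here act in mitosis and chromosome segregation, and were followed in the hippocampus of rats with and without cognitive impairment after stroke. A list of 56 gene symbols defined them. Of these, 55 were in the count tables, which hold 18733 genes, and Ncaph, a condensin subunit, was not found under that symbol. All 55 reached the level needed for testing, but 14 of them did so only through the PSCI libraries (Ccnb2, Cks2, Melk, Pbk, Cdca3, Ncapg, Cdca2, Cenpa, Ska1, Bub1b, Pimreg, Kif2c, Kif14 and Ckap2l). For these 14 a difference from PSCI was built into the filter, so the main counts and medians are also given for the other 41.

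Hippocampal poly(A) RNA was sequenced from 9 male rats, with 1 library per animal and 3 animals in each of 3 groups. Control rats received regular feeding. Rats of the other groups had undergone middle cerebral artery occlusion (MCAO), a model of ischaemic stroke, and were included when maze alternation and object recognition scores both fell below a limit of 20% of the control mean. They were then randomised either to regular feeding for 2 weeks (PSCI, post-stroke cognitive impairment) or to 14 days of transcutaneous auricular vagus nerve stimulation (taVNS), which stimulates the vagal branch of the outer ear through the skin. Total counts ran from 13747381 to 15415684 per library. P-values rest on the spread between these rats, estimated over the 3 groups together, although the PSCI libraries varied more than the others. Sham surgery, sham stimulation, strain, age and the hemisphere taken are not given in the sources used here, so effects of surgery and of impairment cannot be told apart. The hippocampal neuron markers fixed for the check were detected in every library, with a summed level of 2627 to 6923 CPM (counts scaled to library size, here corrected for library composition by TMM, the trimmed mean of M values).

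In mitosis the replicated chromosomes condense, attach to spindle microtubules through kinetochores built on the centromeres, and are pulled to opposite poles before the cell divides. Cyclin-dependent kinase 1 with its B-type cyclins starts the process, the spindle checkpoint delays separation until every chromosome is attached, and the anaphase-promoting complex with Cdc20 ends the delay. Most of these genes are transcribed only in cycling cells, late in the cell cycle, under the control of MuvB-type complexes and Foxm1. In the adult hippocampus the cells known to divide are neural progenitors of the dentate gyrus and glial precursors, and after injury also microglia and some astrocytes.

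Promoters of such genes are known for 2 short elements, the cell cycle genes homology region (CHR) and the CCAAT box bound by NF-Y. Their letters were searched in the 120 bases before the annotated start, on both strands. For the CHR the 6 letters TTTGAA were taken, or the variant with C at the third base, for which the search spelled TTCGAA. On the reverse strand the first of these reads TTCAAA. The CCAAT box is spelled by its name and reads ATTGG on the reverse strand. RefSeq promoters of the rat assembly GRCr8 were matched by gene identifier for 45 of the 55 genes, giving 46 promoters because Kif2c has 2. A CHR match was present in 19 of 46 (41.3%), against 7.59% of all 33469 promoters in the table, and a CCAAT match in 28 of 46 (60.9%), against 19.9%. Both were present in 14 of 46 (30.4%), against 1.66% of all promoters. The windows below are printed 5′ to 3′ along the gene, with matches in capitals. They show 5 genes with both elements (Cdk1, Top2a, Mki67, Cdc20 and Prc1), Cenpf and Kif11 with a CCAAT match alone, Bub1b with neither, and Anln, a gene that was not called.
Cdk1: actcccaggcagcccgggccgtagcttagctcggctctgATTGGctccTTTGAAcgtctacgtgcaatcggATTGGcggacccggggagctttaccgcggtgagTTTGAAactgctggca
Top2a: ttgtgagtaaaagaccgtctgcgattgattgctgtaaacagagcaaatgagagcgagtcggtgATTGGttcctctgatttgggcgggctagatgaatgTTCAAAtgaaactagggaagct
Mki67: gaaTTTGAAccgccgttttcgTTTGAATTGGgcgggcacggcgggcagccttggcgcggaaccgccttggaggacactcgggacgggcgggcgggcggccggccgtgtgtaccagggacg
Cdc20: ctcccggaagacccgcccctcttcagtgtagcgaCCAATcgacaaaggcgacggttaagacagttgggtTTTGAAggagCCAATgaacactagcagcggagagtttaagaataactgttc
Prc1: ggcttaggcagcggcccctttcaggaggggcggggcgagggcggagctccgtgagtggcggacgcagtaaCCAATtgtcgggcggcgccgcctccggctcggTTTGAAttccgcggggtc
Cenpf: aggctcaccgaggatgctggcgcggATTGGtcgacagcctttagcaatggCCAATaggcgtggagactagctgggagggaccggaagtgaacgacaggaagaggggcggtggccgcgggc
Kif11: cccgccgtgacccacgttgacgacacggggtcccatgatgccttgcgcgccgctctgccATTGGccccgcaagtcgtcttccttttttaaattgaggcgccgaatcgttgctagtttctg
Bub1b: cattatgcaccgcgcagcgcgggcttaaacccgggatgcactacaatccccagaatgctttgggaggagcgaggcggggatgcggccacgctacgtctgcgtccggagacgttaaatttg
Anln: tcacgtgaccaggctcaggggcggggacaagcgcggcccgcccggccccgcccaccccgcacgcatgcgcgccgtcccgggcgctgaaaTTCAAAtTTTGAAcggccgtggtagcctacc

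In GRCr8 coordinates these windows are chr20:19265173-19265292 (plus strand) for Cdk1, chr10:84473094-84473213 (minus strand) for Top2a, chr1:199952594-199952713 (minus strand) for Mki67, chr5:137255800-137255919 (minus strand) for Cdc20 and chr1:143659361-143659480 (plus strand) for Prc1. The remaining windows are chr13:103760887-103761006 (minus strand) for Cenpf, chr1:244536747-244536866 (plus strand) for Kif11, chr3:126016947-126017066 (plus strand) for Bub1b and chr8:29197514-29197633 (minus strand) for Anln. In Mki67 the second CHR match and the CCAAT match overlap by 1 base. The median log2 fold change of PSCI against control was 3.38 for the 14 genes with both matches, 3.40 for the 14 with CCAAT alone, 2.14 for the 5 with CHR alone (Anln, Birc5, Cenpa, Kif15 and Kif20b) and 3.26 for the 12 with neither. Among the genes that reached the filter without PSCI these medians were 3.22 (11 genes), 2.99 (12 genes), 1.85 (4 genes) and 2.96 (8 genes). Within these windows Anln holds 2 CHR matches and was not called. Bub1b, which passed the filter only through PSCI, holds none there and differed 36.1-fold. The classes depend on the window. In the whole 300 bases, which include 50 after the start, a CHR match was present in 31 of 46 promoters (67.4%). The share over all promoters was 19.7%. A match describes letters only, and binding was not measured.

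The first comparison asked how the hippocampus of impaired rats differed from that of controls. Genes of mitosis were higher in PSCI at every step of the process, from Cdk1 and its cyclins at entry to Prc1 and Racgap1 at cell division. Of the 55 genes, 52 were called higher and 0 lower by the quasi-likelihood test of edgeR at an adjusted p under 0.05, while 7.71% of the 14840 genes tested were called higher, 2.14% lower and 9.85% in either direction. Among the 41 genes that reached the filter without the PSCI libraries, 38 were called higher. Ska3, Kif15 and Anln were not called. The median log2 fold change was 3.29 over the 55 genes and 2.83 over the 41, beside a median near 0 over all genes tested. In 53 of the 55 genes (96.4%) every PSCI library lay above every control library, as it did for 16.2% of all genes and for 39 of the 41 (95.1%). In bulk tissue, more cells of a dividing type and more RNA per cell cannot be told apart.

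The second comparison asked how stimulated rats differed from unstimulated impaired rats. The same steps of mitosis were lower in taVNS: of the 55 genes, 51 were called lower and 0 higher, while 4.91% of all genes were called lower, 0.842% higher and 5.75% in either direction. Among the 41 genes that reached the filter without PSCI, 37 were called lower. Spc24, Ska3, Kif15 and Anln were not called. The median log2 fold change was -3.12 over the 55 genes and -2.69 over the 41. Every taVNS library lay below every PSCI library in 53 genes (96.4%), as in 15.2% of all genes and in 39 of the 41. Both comparisons use the same PSCI libraries, so a high PSCI value enters each of them. The number of calls varied with the fit and the libraries, for the list and for all genes tested. By limma-voom 20 of the 55 genes and 13 of the 41 were called lower, beside 2.72% of all genes. In a fit of only these 2 groups the numbers were 26 and 15, beside 1.53% of all genes. Without taVNS replicate 1 they were 23 and 14 (1.05% of all genes), without taVNS replicate 2 they were 29 and 18 (1.42%), and without taVNS replicate 3 they were 34 and 23 (1.87%).

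**Figure D1:**
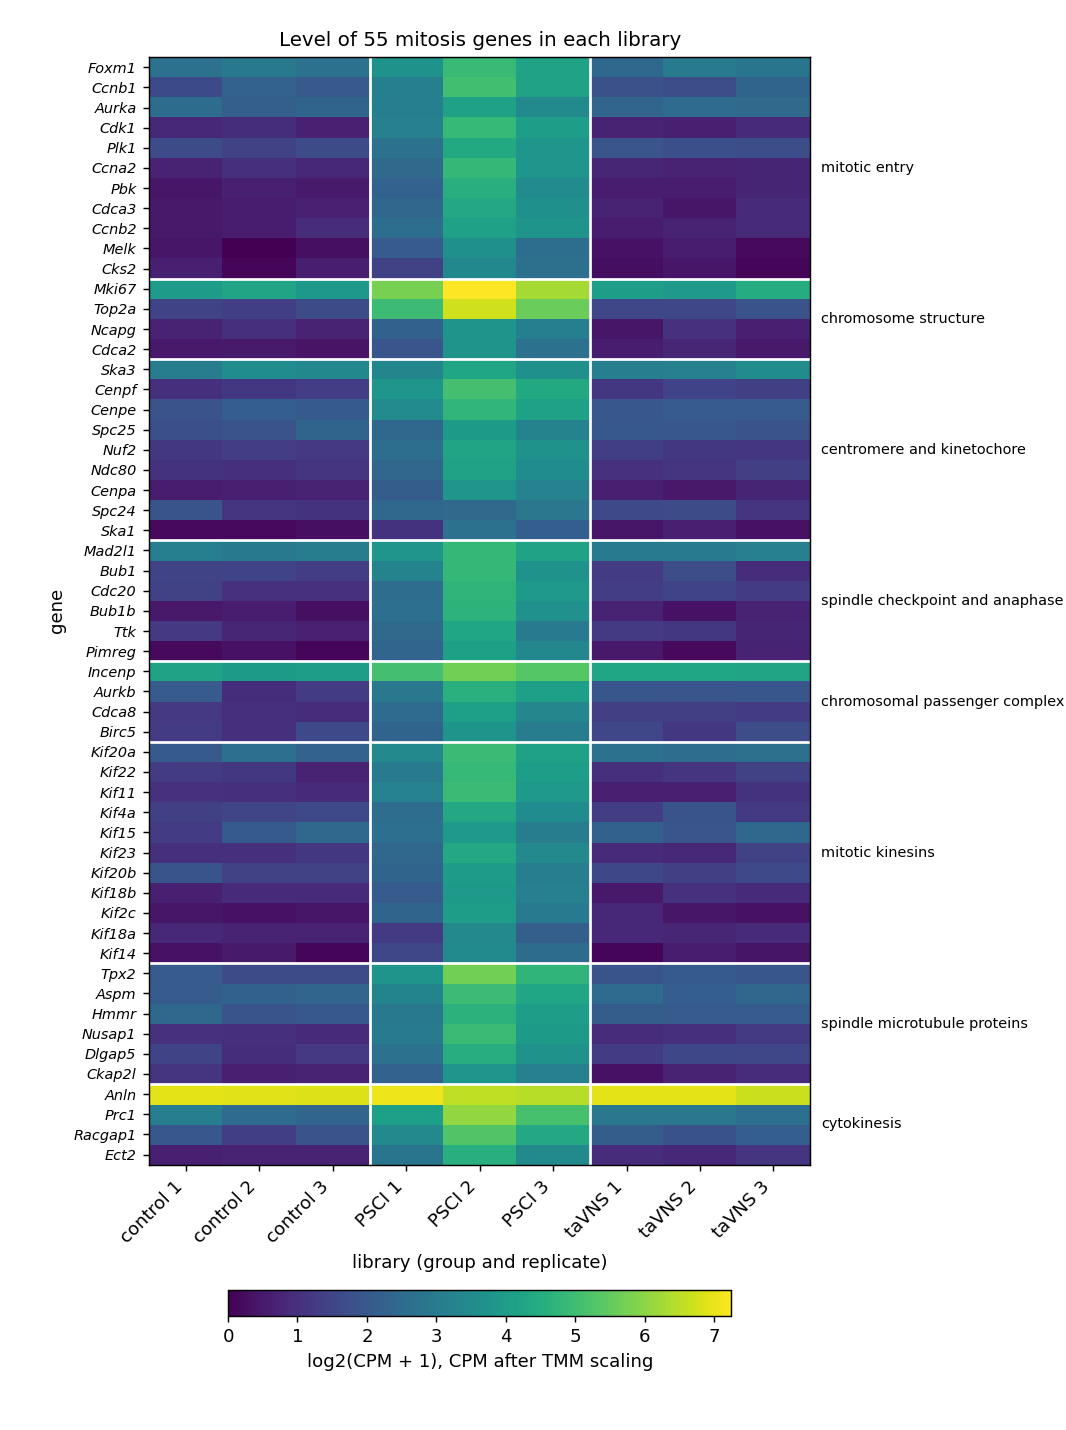
Level of each of the 55 genes (rows, grouped by role) in each of the 9 libraries (columns), coloured by log2(CPM + 1). The PSCI columns are brighter than the control and taVNS columns in nearly every row, most of all PSCI replicate 2, and Anln is bright in all 9 libraries.

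Of the mitotic entry genes, 11 of 11 were called higher in PSCI (median log2 fold change 4.25) and 11 of 11 lower in taVNS (median -4.28). Over the 6 that reached the filter without PSCI (all but Ccnb2, Cks2, Melk, Pbk and Cdca3) the medians were 2.68 and -2.53. Cdk1, the kinase that starts mitosis, stood at 0.759, 0.921 and 0.588 CPM in the control libraries, 7.84, 27.7 and 15.6 CPM in the PSCI libraries and 0.631, 0.560 and 0.820 CPM in the taVNS libraries. No control or taVNS library came near the lowest PSCI library. The log2 fold change was 4.48 ± 0.48 (SE, adjusted p = 0.00136) for PSCI against control and -4.65 ± 0.48 (SE, adjusted p = 0.00181) for taVNS against PSCI. Its partner cyclin Ccnb1 measured 2.07, 3.82 and 3.09 CPM in the control libraries, 7.70, 32.2 and 17.0 CPM in the PSCI libraries and 2.45, 2.31 and 4.03 CPM in the taVNS libraries. PSCI replicate 1 lay nearest to the control range, and the other PSCI libraries were far higher. Ccnb1 gave a log2 fold change of 2.66 ± 0.50 (SE, adjusted p = 0.0120) in PSCI and -2.69 ± 0.50 (SE, adjusted p = 0.0172) in taVNS against PSCI. The second B-type cyclin, Ccnb2, was at 0.414, 0.496 and 0.882 CPM in the control libraries, 5.11, 16.6 and 12.6 CPM in the PSCI libraries and 0.490, 0.629 and 0.820 CPM in the taVNS libraries. Its control and taVNS levels lay close together, and the fitted changes were 4.25 ± 0.50 (SE, adjusted p = 0.00202) and -4.12 ± 0.49 (SE, adjusted p = 0.00366) in the same order.

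Foxm1, the transcription factor of late cell cycle genes, and Aurka, the centrosome kinase, had higher control levels per length than Cdk1 and its cyclins, and smaller fitted folds. Foxm1 measured 5.59, 6.66 and 5.58 CPM in the control libraries, 11.9, 29.0 and 17.0 CPM in the PSCI libraries and 4.34, 6.78 and 6.08 CPM in the taVNS libraries. Aurka measured 4.90, 3.61 and 4.04 CPM in the control libraries, 7.77, 16.8 and 9.92 CPM in the PSCI libraries and 4.13, 4.76 and 4.71 CPM in the taVNS libraries. In both genes the PSCI libraries lay above all others, with PSCI replicate 1 nearest to them. Foxm1 was 3.25-fold higher in PSCI than in control (adjusted p = 0.0114) and 3.37-fold lower in taVNS than in PSCI (adjusted p = 0.0159). Aurka was 2.74-fold higher (adjusted p = 0.0140) and 2.53-fold lower (adjusted p = 0.0276). The 6 other genes of the group were the S and G2 phase cyclin Ccna2, the Cdk subunit Cks2, the polo kinase Plk1, the kinases Melk and Pbk, and Cdca3, which promotes entry. Their means were 0.188 to 1.99 CPM in control, 5.47 to 15.1 CPM in PSCI and 0.209 to 2.48 CPM in taVNS. PSCI exceeded control by 6.45-fold (Plk1) to 33.7-fold (Melk) in these 6.

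Of the genes that shape mitotic chromosomes, 4 of 4 were called higher in PSCI (median log2 fold change 3.78) and 4 of 4 lower in taVNS (median -3.65). Top2a and Mki67, the 2 that reached the filter without PSCI, had medians of 3.82 and -3.63. Top2a, the topoisomerase that untangles sister DNA, stood at 1.79, 1.56 and 2.13 CPM in the control libraries, 30.2, 104 and 46.9 CPM in the PSCI libraries and 1.89, 1.89 and 2.60 CPM in the taVNS libraries. Control and taVNS libraries lay within a narrow low band, and every PSCI library was far above it. Top2a changed by 5.04 ± 0.47 (SE, adjusted p = 0.000724) on the log2 scale in PSCI and by -4.82 ± 0.47 (SE, adjusted p = 0.00117) in taVNS against PSCI. Mki67, which encodes the proliferation antigen on the surface of mitotic chromosomes, measured 14.6, 17.8 and 13.7 CPM in the control libraries, 53.5, 151 and 76.1 CPM in the PSCI libraries and 15.8, 14.3 and 21.5 CPM in the taVNS libraries. Mki67 was readily detected in control, and every PSCI library lay above every other library. The corresponding changes were 2.60 ± 0.36 (SE, adjusted p = 0.00378) and -2.44 ± 0.35 (SE, adjusted p = 0.00718). The condensin subunit Ncapg was at 0.621, 0.992 and 0.661 CPM in the control libraries, 3.75, 12.4 and 7.77 CPM in the PSCI libraries and 0.350, 1.05 and 0.547 CPM in the taVNS libraries. Ncapg was near or below 1 CPM in every control and taVNS library and above 3 CPM in every PSCI library. Its changes were 3.38 ± 0.52 (SE, adjusted p = 0.00590) and -3.60 ± 0.53 (SE, adjusted p = 0.00731). Cdca2, a chromatin-bound phosphatase subunit, was 18.0-fold higher in PSCI.

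At the centromere and kinetochore 8 of 9 genes were called higher in PSCI (median log2 fold change 3.11) and 7 of 9 lower in taVNS (median -3.06). Without Cenpa and Ska1, which passed only through PSCI, the numbers were 6 of 7 (median 2.52) and 5 of 7 (median -2.48). Cenpf, a large kinetochore protein of G2 and mitosis, had the lowest adjusted p of the list in both comparisons. It measured 0.966, 1.27 and 1.47 CPM in the control libraries, 13.0, 33.3 and 20.2 CPM in the PSCI libraries and 1.26, 1.75 and 1.57 CPM in the taVNS libraries. Every PSCI library was above 10 CPM, and no other library exceeded 2 CPM. Cenpf changed by 4.16 ± 0.37 (SE, adjusted p = 0.000514) in PSCI and by -3.85 ± 0.36 (SE, adjusted p = 0.000970) in taVNS against PSCI. Cenpe, the kinetochore motor, stood at 2.62, 3.47 and 3.16 CPM in the control libraries, 10.3, 26.3 and 16.6 CPM in the PSCI libraries and 2.94, 3.36 and 3.21 CPM in the taVNS libraries. Control and taVNS overlapped and PSCI lay above both. Cenpe changed by 2.52 ± 0.32 (SE, adjusted p = 0.00286) and -2.48 ± 0.32 (SE, adjusted p = 0.00450).

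The 4 subunits of the Ndc80 complex, the main microtubule-binding unit of the kinetochore, did not differ by the same factor. Ndc80 and Nuf2 were 9.69-fold and 8.62-fold higher in PSCI, while Spc24 and Spc25 were 3.12-fold and 3.01-fold higher. The difference between subunits was not tested. Spc24 was at 2.69, 1.13 and 1.10 CPM in the control libraries, 4.36, 4.72 and 6.40 CPM in the PSCI libraries and 2.03, 2.17 and 1.16 CPM in the taVNS libraries. PSCI replicate 2, the highest PSCI library for most genes, was not the highest for Spc24, and control replicate 1 lay above the taVNS libraries. Spc24 was called in PSCI against control, with a log2 fold change of 1.64 ± 0.40 (SE, adjusted p = 0.0332), and not called in taVNS against PSCI, at -1.53 ± 0.40 (SE, adjusted p = 0.0581). DESeq2 gave the second comparison an adjusted p of 0.0102, and the range over all alternatives was 0.0102 to 0.185. Ska3, a subunit of the Ska complex that holds kinetochores to shrinking microtubules, measured 7.32, 10.5 and 9.40 CPM in the control libraries, 9.07, 18.2 and 11.6 CPM in the PSCI libraries and 7.64, 7.97 and 10.5 CPM in the taVNS libraries. PSCI replicate 1 lay within the control range, and the difference of 0.51 ± 0.27 (SE, adjusted p = 0.271) was not called. Its partner Ska1 was 19.2-fold higher in PSCI, with control libraries at or below 0.220 CPM. The centromeric histone Cenpa was 14.2-fold higher.

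All 6 spindle checkpoint and anaphase genes were called higher in PSCI (median log2 fold change 3.54) and lower in taVNS (median -3.32). Without Bub1b and Pimreg, which passed only through PSCI, 4 of 4 were called in each comparison (medians 3.38 and -3.22). Bub1, a checkpoint kinase at the kinetochore, measured 1.79, 1.77 and 1.47 CPM in the control libraries, 8.45, 27.5 and 11.9 CPM in the PSCI libraries and 1.40, 2.31 and 0.888 CPM in the taVNS libraries. PSCI replicate 3 was closer to PSCI replicate 1 than to replicate 2, and every PSCI library exceeded every other library. Bub1 changed by 3.24 ± 0.49 (SE, adjusted p = 0.00555) in PSCI and -3.38 ± 0.49 (SE, adjusted p = 0.00726) in taVNS against PSCI. Mad2l1, the checkpoint protein that holds Cdc20 inactive, stood at 7.80, 6.59 and 7.35 CPM in the control libraries, 12.6, 27.1 and 17.2 CPM in the PSCI libraries and 6.73, 6.78 and 7.86 CPM in the taVNS libraries. Its control level was about that of taVNS, and its difference was the smallest of the group, 2.62-fold (adjusted p = 0.0113) and 2.67-fold lower in taVNS than in PSCI (adjusted p = 0.0160). Cdc20, the activator of the anaphase-promoting complex, was at 1.66, 1.06 and 1.03 CPM in the control libraries, 5.04, 25.7 and 14.0 CPM in the PSCI libraries and 1.47, 1.75 and 1.43 CPM in the taVNS libraries. The PSCI libraries differed widely among themselves and still lay above all others. Cdc20 changed by 3.57 ± 0.54 (SE, adjusted p = 0.00579) and -3.26 ± 0.53 (SE, adjusted p = 0.0115). The kinases Bub1b and Ttk were 36.1-fold and 11.4-fold higher in PSCI. Pimreg had the largest fitted fold of the list, 57.1-fold, over control libraries of 0.138, 0.283 and 0.0735 CPM, of which replicate 2 alone exceeded the floor of 3 counts (0.195 to 0.218 CPM).

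The chromosomal passenger complex, which corrects faulty attachments and later marks the division plane, was called higher in PSCI in 4 of 4 subunits and lower in taVNS in 4 of 4. Incenp, its scaffold, stood at 17.2, 14.6 and 15.9 CPM in the control libraries, 32.7, 50.8 and 39.7 CPM in the PSCI libraries and 18.4, 18.3 and 17.9 CPM in the taVNS libraries. No control or taVNS library reached the lowest PSCI library, and the spread within groups was small. A 2.59-fold difference had an adjusted p of 0.00189, and the 2.26-fold lower level in taVNS than in PSCI had 0.00510. Aurkb, its kinase, measured 3.24, 0.921 and 1.40 CPM in the control libraries, 6.54, 23.4 and 16.1 CPM in the PSCI libraries and 2.80, 2.80 and 2.87 CPM in the taVNS libraries. Control replicate 1 was above all taVNS libraries and below every PSCI library. Aurkb changed by 3.04 ± 0.53 (SE, adjusted p = 0.00941) and -2.44 ± 0.51 (SE, adjusted p = 0.0279). The targeting subunit Cdca8 stood at 1.31, 0.992 and 0.882 CPM in the control libraries, 4.77, 16.0 and 9.20 CPM in the PSCI libraries and 1.61, 1.61 and 1.43 CPM in the taVNS libraries. Cdca8 changed by 3.22 ± 0.43 (SE, adjusted p = 0.00347) and -2.68 ± 0.41 (SE, adjusted p = 0.00921), and its taVNS libraries all lay above its control libraries. The other targeting subunit, Birc5 (survivin), was 5.30-fold higher in PSCI and 4.40-fold lower in taVNS than in PSCI.

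Among the mitotic kinesins, motors of the spindle and the division site, 10 of 11 were called higher in PSCI (median log2 fold change 3.39) and 10 of 11 lower in taVNS (median -3.33). Without Kif2c and Kif14, which passed only through PSCI, 8 of 9 were called in each comparison (medians 2.82 and -2.69). Kif11, the motor that separates the spindle poles, measured 1.04, 0.992 and 0.808 CPM in the control libraries, 8.25, 29.7 and 14.2 CPM in the PSCI libraries and 0.561, 0.560 and 1.09 CPM in the taVNS libraries. No control or taVNS library came near the PSCI libraries, and Kif11 changed by 4.19 ± 0.50 (SE, adjusted p = 0.00226) in PSCI and -4.54 ± 0.52 (SE, adjusted p = 0.00283) in taVNS against PSCI. Kif15, which can take over part of the work of Kif11, stood at 1.45, 3.12 and 4.41 CPM in the control libraries, 5.25, 13.8 and 7.44 CPM in the PSCI libraries and 3.71, 2.80 and 4.37 CPM in the taVNS libraries. All 3 PSCI libraries lay above the other libraries, yet control ranged widely and neither difference was called, at 1.56 ± 0.45 (SE, adjusted p = 0.0599) and -1.28 ± 0.44 (SE, adjusted p = 0.138). For PSCI against control, DESeq2 called Kif15 with an adjusted p of 0.00961, and the range over all alternatives was 0.00961 to 0.149. Kif20a, a kinesin of the central spindle, was at 3.17, 5.31 and 3.82 CPM in the control libraries, 9.75, 30.0 and 16.6 CPM in the PSCI libraries and 5.61, 4.97 and 5.40 CPM in the taVNS libraries. Control and taVNS overlapped, and Kif20a changed by 2.19 ± 0.38 (SE, adjusted p = 0.00894) and -1.82 ± 0.37 (SE, adjusted p = 0.0258). Kif22, a chromosome-binding kinesin, measured 1.45, 1.27 and 0.661 CPM in the control libraries, 6.75, 28.2 and 15.7 CPM in the PSCI libraries and 0.981, 1.12 and 1.64 CPM in the taVNS libraries. Again PSCI replicate 2 was highest and no other group reached PSCI, with changes of 3.89 ± 0.54 (SE, adjusted p = 0.00386) and -3.75 ± 0.53 (SE, adjusted p = 0.00652). The 7 other kinesins were 4.40-fold (Kif20b) to 26.2-fold (Kif2c) higher in PSCI. They act in microtubule length and disassembly (Kif18a, Kif18b, Kif2c), chromosome arms and the midzone (Kif4a) and cytokinesis (Kif14, Kif20b, Kif23).

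All 6 spindle microtubule proteins were called higher in PSCI (median log2 fold change 3.33) and lower in taVNS (median -3.15). Without Ckap2l, which passed only through PSCI, the medians of the other 5 were 3.29 and -2.91. Tpx2, which activates Aurka and nucleates spindle microtubules, stood at 3.24, 2.20 and 2.13 CPM in the control libraries, 12.5, 51.7 and 25.5 CPM in the PSCI libraries and 2.66, 3.15 and 2.80 CPM in the taVNS libraries. Even PSCI replicate 1, the lowest of its group, was well above every control and taVNS library. Tpx2 changed by 3.56 ± 0.48 (SE, adjusted p = 0.00347) and -3.38 ± 0.47 (SE, adjusted p = 0.00600). Aspm, a spindle pole protein known for its role in neural progenitors, measured 3.31, 3.75 and 4.19 CPM in the control libraries, 8.66, 30.2 and 18.5 CPM in the PSCI libraries and 4.76, 3.50 and 4.24 CPM in the taVNS libraries. Hmmr, another spindle assembly protein, was at 4.42, 2.69 and 3.01 CPM in the control libraries, 6.68, 24.2 and 15.9 CPM in the PSCI libraries and 3.43, 3.22 and 3.28 CPM in the taVNS libraries. Both genes had overlapping control and taVNS levels and separate PSCI levels. Aspm was 5.09-fold and Hmmr 4.60-fold higher in PSCI (adjusted p = 0.00791 and 0.0124), and 4.58-fold and 4.70-fold lower in taVNS than in PSCI (adjusted p = 0.0157 and 0.0177). The microtubule-associated proteins Nusap1, Dlgap5 and Ckap2l were 9.81-fold (Dlgap5) to 17.9-fold (Nusap1) higher in PSCI.

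Cytokinesis genes divided into 3 that were called and Anln, which was not. Prc1, the crosslinker of the central spindle, measured 7.59, 4.75 and 4.11 CPM in the control libraries, 16.2, 66.7 and 34.1 CPM in the PSCI libraries and 6.45, 6.43 and 5.26 CPM in the taVNS libraries. Racgap1, of the centralspindlin complex, measured 2.90, 1.56 and 2.64 CPM in the control libraries, 9.61, 38.2 and 19.9 CPM in the PSCI libraries and 3.36, 2.52 and 3.48 CPM in the taVNS libraries. In both, the PSCI libraries differed widely from each other and lay above all others. Prc1 changed by 2.83 ± 0.47 (SE, adjusted p = 0.00754) and -2.69 ± 0.47 (SE, adjusted p = 0.0144), and Racgap1 by 3.25 ± 0.48 (SE, adjusted p = 0.00525) and -2.85 ± 0.47 (SE, adjusted p = 0.0118). Ect2, which activates the small GTPase of the contractile ring, was 20.7-fold higher in PSCI and 13.5-fold lower in taVNS than in PSCI. Anln, an actin-binding scaffold of the contractile ring that is also known as a component of myelin, stood at 124, 121 and 116 CPM in the control libraries, 133, 93.7 and 87.3 CPM in the PSCI libraries and 122, 123 and 100 CPM in the taVNS libraries. The groups overlapped, and the differences of -0.20 ± 0.16 (SE, adjusted p = 0.473) and 0.14 ± 0.16 (SE, adjusted p = 0.672) were not called. Without PSCI replicate 1, Anln was called lower in PSCI, with a log2 fold change of -0.41 (adjusted p = 0.0388, within a range of 0.0388 to 0.816 over all alternatives). The 6 myelin markers summed to 9315 to 16342 CPM in control, to 13201, 4703 and 13186 CPM in the PSCI libraries and to 8558 to 13391 CPM in taVNS. Their part in the Anln values was not tested.

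**Figure D2:**
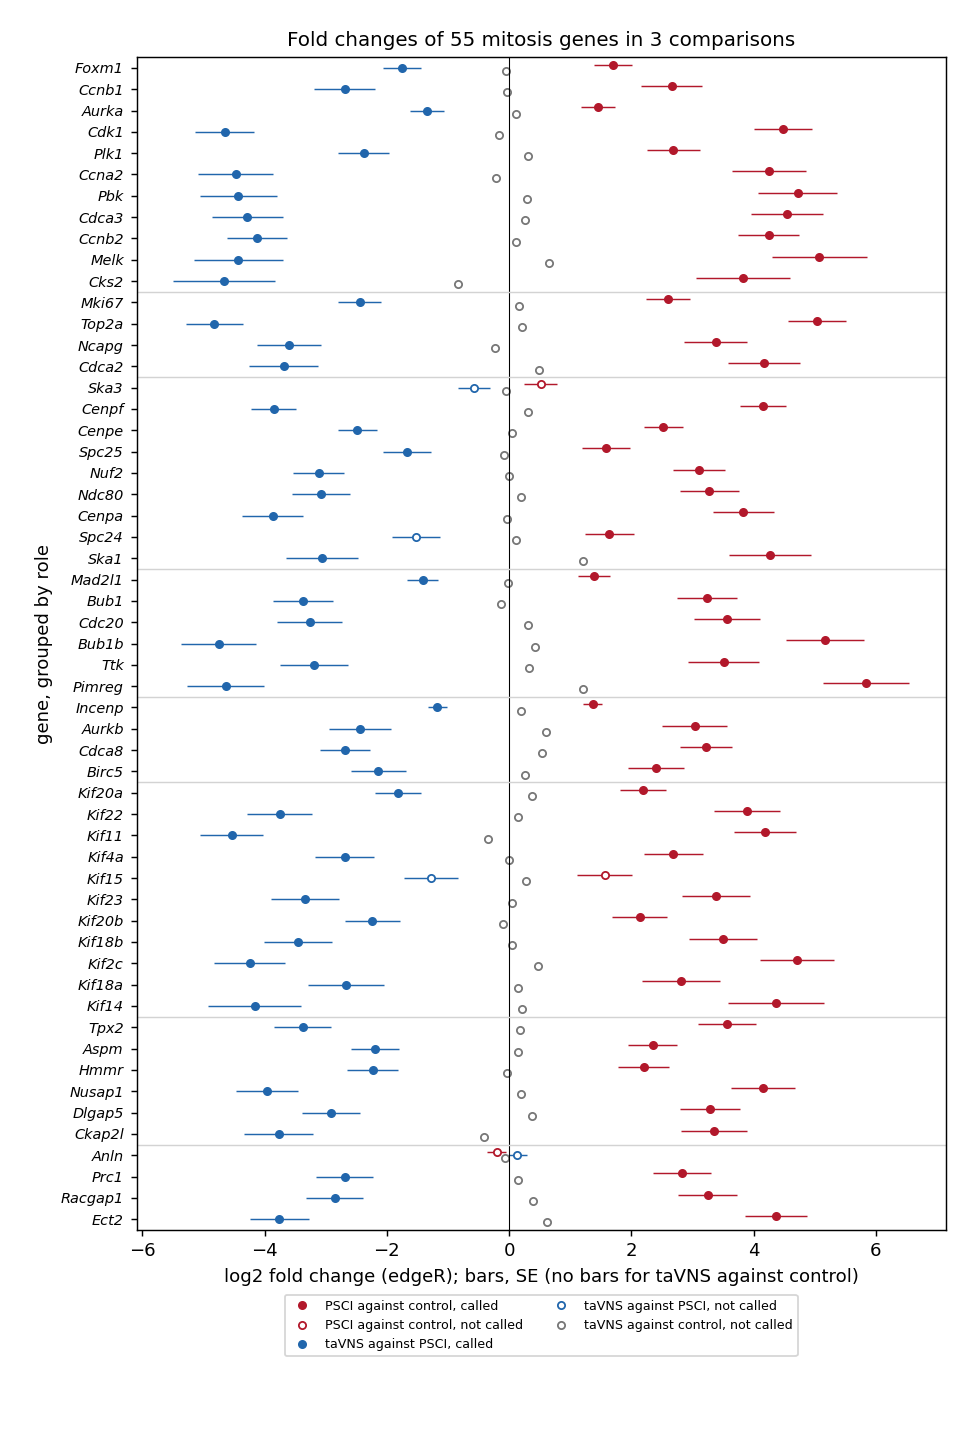
Fitted log2 fold change (horizontal axis) of each gene (vertical axis, grouped by role) in PSCI against control (red), taVNS against PSCI (blue) and taVNS against control (grey), with bars of 1 SE for the first and second. Filled points were called at an adjusted p under 0.05, and open points were not. Red points lie right of 0, blue points left and grey points around 0, apart from Anln, which is near 0 in all 3.

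Within PSCI the libraries differed far more than within the other groups, and in one order. The coefficient of variation (CV, SD over mean) across 3 libraries had a median over the 55 genes of 61.8% in PSCI, 22.0% in control and 21.8% in taVNS. Replicate 1 was lowest, replicate 3 intermediate and replicate 2 highest in 53 of the 55 genes and in 39 of the 41, as in 28.4% of all genes tested and 70.1% of genes called higher in PSCI. The 2 exceptions were Spc24 and Anln. PSCI replicate 2 exceeded replicate 1 by a median factor of 3.72 (0.704 to 7.11), and replicate 3 exceeded replicate 1 by 2.07 (0.656 to 3.27). Relative to the control mean of each gene, the median log2 ratio was 1.98 in PSCI replicate 1, 3.93 in replicate 2 and 3.06 in replicate 3, against 0.04, 0.06 and 0.19 in the taVNS libraries. Over the 41 genes the PSCI values were 1.77, 3.59 and 2.64.

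**Figure D3:**
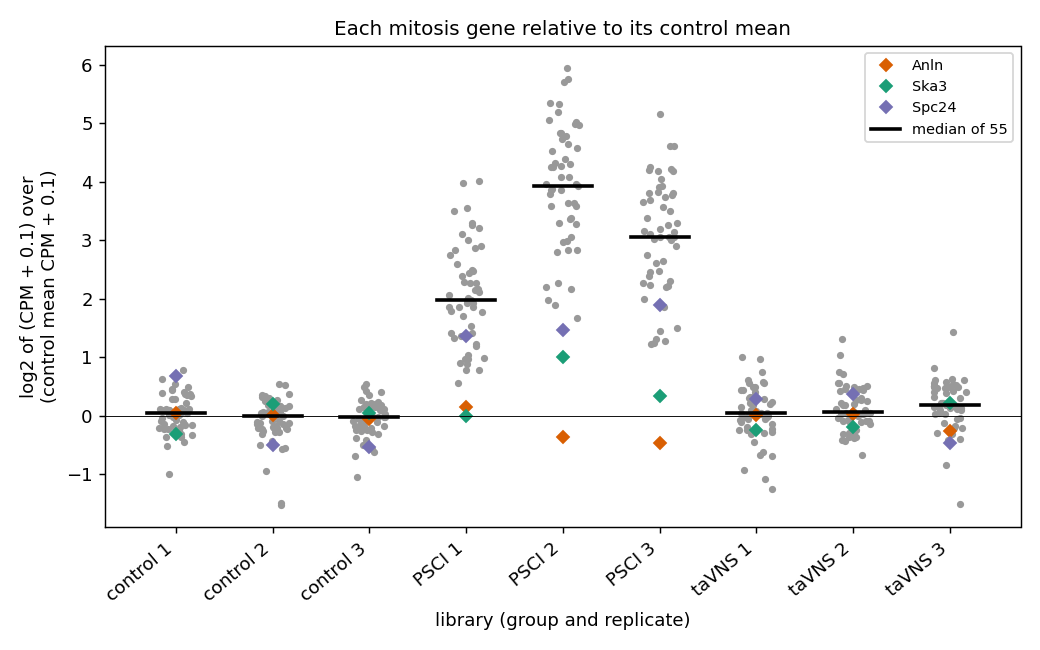
Each gene relative to its own control mean (vertical axis, log2 of CPM + 0.1 over the control mean + 0.1) in each of the 9 libraries (horizontal axis). Grey points are genes, black bars medians of 55, and diamonds mark Anln, Ska3 and Spc24. The median is 1.98 in the lowest PSCI library and between 0.04 and 0.19 in the taVNS libraries.

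PSCI replicate 2 stood apart in other measures as well. Its meningeal and fibroblast markers summed to 297 CPM, against 71.2 and 85.6 CPM in the other PSCI libraries and 65.8 to 95.6 CPM in control. Its hippocampal neuron markers summed to 2627 CPM, against 6459 and 5339 CPM in the other PSCI libraries. The taVNS library of replicate 3 also had high meningeal markers, 418 CPM against 56.0 and 76.6 CPM in the other taVNS libraries. Without PSCI replicate 2, 51 of the 55 genes were called higher in PSCI (median log2 fold change 2.73) and 48 lower in taVNS (median -2.54), beside 5.95% and 3.47% of all genes. Of the 41 genes, 37 and 34 were then called (medians 2.20 and -2.08). The folds of 26 genes moved by over 1.5 times in each comparison without that library, including those of Top2a, Bub1b, Kif11, Tpx2, Prc1 and Cdc20 in PSCI against control. The log2 fold change of Top2a was then 4.40, that of Bub1b 4.46 and that of Cdc20 2.92. Without PSCI replicate 2 and taVNS replicate 3 together, a setting added after the data were seen, 51 were called higher (median 2.71) and 38 lower (median -2.44), of which 37 and 27 belonged to the 41. Other libraries moved few folds of PSCI against control by that much: Melk and Aurkb without control replicate 1, and Pimreg without control replicate 2.

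Many calls were lost when 1 library was left out, although no called gene changed direction under the alternatives it could be tested in. Leaving out a taVNS library moved 0 folds of taVNS against PSCI by over 1.5 times. The share of all genes called lower fell from 4.91% to between 1.05% and 1.87% in those fits. In PSCI against control, 13 genes lost their call when 1 library was left out, with adjusted p up to 0.129, and 12 of these belonged to the 41. Without control replicate 2 these were Cks2, Aurka, Spc24, Spc25, Mad2l1, Birc5, Kif18a, Kif4a, Kif20b and Hmmr (adjusted p from 0.0506 to 0.118), and without control replicate 3 Ccnb1, Cks2, Aurka, Foxm1, Spc24, Spc25, Aurkb, Kif18a, Kif20b and Hmmr (from 0.0509 to 0.129). Without control replicate 1, Ccnb1, Spc25 and Kif18a lost it (0.0509 to 0.112). Spc25 also lost it without PSCI replicate 2 or replicate 3, or taVNS replicate 1 or 2, and Spc24 without PSCI replicate 3 or taVNS replicate 1. In taVNS against PSCI, 28 genes lost their call in at least 1 such fit, with adjusted p up to 0.149, and 23 of these belonged to the 41. These were Aspm, Aurka, Aurkb, Birc5, Ccnb1, Cdc20, Cdca2, Cdca8, Cks2, Dlgap5, Foxm1, Hmmr, Kif14, Kif18a, Kif18b, Kif20a, Kif20b, Kif23, Kif4a, Mad2l1, Melk, Ndc80, Plk1, Prc1, Racgap1, Ska1, Spc25 and Ttk. Without taVNS replicate 1 the number was 28 (0.0517 to 0.149), without taVNS replicate 2 it was 22 (0.0518 to 0.130) and without taVNS replicate 3 it was 17 (0.0533 to 0.125). Without PSCI replicate 3 it was 9 (0.0537 to 0.103), and leaving out PSCI replicate 2 or a control library removed 2 or 3 calls. Of the 23 genes called lower in every one of these 9 fits, 14 belonged to the 41, and the others passed the filter only through PSCI. The 14 included Cdk1, Top2a, Mki67, Cenpf, Cenpe, Bub1, Incenp and Kif11, and the others included Ccnb2.

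Levels can be compared between genes only per length, as RPKM (reads scaled for gene length and depth). On that scale the list was uneven in control and taVNS and more even in PSCI. The control means ran from 0.0367 RPKM (Kif14) to 26.3 RPKM (Anln), with a median of 0.493 RPKM, and the next gene after Anln was Ska3 at 4.15 RPKM. In PSCI the median was 6.91 RPKM and the range 0.827 to 23.7 RPKM. Behind Anln, the highest in PSCI were Cdk1 at 19.2 ± 12.02 RPKM, Cks2 at 16.7 ± 12.4 RPKM, Prc1 at 14.9 ± 10.3 RPKM and Top2a at 13.3 ± 9.01 RPKM (SD, n = 3). Cdk1 was the highest of these 4 in every PSCI library. Differences between the 4 were not tested, and the SD between rats does not measure them. In taVNS the median was 0.540 RPKM. Leaving out Anln, the highest and lowest gene means differed 113-fold in control, 23.2-fold in PSCI and 94.2-fold in taVNS. Kif14, the lowest in each group, passed the filter only through PSCI, so part of the wider spans was built into the filter. Among the 41 genes, again without Anln, control means ran from 0.127 (Cenpf) to 4.15 RPKM (Ska3). Those in PSCI ran from 1.57 (Kif18a) to 19.2 RPKM (Cdk1), and those in taVNS from 0.153 (Cenpf) to 4.08 RPKM (Ska3).

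RPKM and counts gave the same sign for 55 of 55 genes in PSCI against control and for 55 of 55 in taVNS against PSCI. They differed by over 0.25 on the log2 scale for 3 genes in each. These were Cenpa, Spc25 and Birc5 in the first and Ndc80, Spc25 and Birc5 in the second. In taVNS against control the sign differed for Cenpa, Ndc80 and Nuf2. Ccnb1 and Kif23 had equal mean RPKM in control and taVNS (0.983 and 0.36 RPKM), so their RPKM ratios had no sign. The other genes had the same sign by both measures. The log2 ratio of Cenpa there was -0.04 by CPM and 0.71 by RPKM.

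The third comparison asked whether stimulated rats differed from controls. No gene of the list differed detectably: 0 of 55 were called and 0 had an unadjusted p under 0.05 in edgeR, while 0% of all genes were called and 3.75% (557 genes) had an unadjusted p under 0.05. DESeq2 and limma called 0 of the 55 as well. The median log2 fold change was 0.15, with 38 genes above 0 and 17 below (28 and 13 of the 41, median 0.14), from -0.84 (Cks2) to 1.20 (Ska1). All taVNS libraries lay above all control libraries in 5 genes (9.09%), as in 5.74% of all genes and in 4 of the 41. These were Plk1, Ska1, Incenp, Cdca8 and Ect2, with means of 2.48, 0.394, 18.2, 1.55 and 0.947 CPM in taVNS and 1.99, 0.167, 15.9, 1.06 and 0.617 CPM in control. The largest fitted fold among them, 2.30-fold for Ska1, had a log2 SE of 0.78 and rested on under 1 CPM in both groups. A missed threshold with 3 rats per group does not show that the groups were equal.

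Other genes of the cell cycle were measured beside the list. Of 87 further mitosis genes 44 were called higher in PSCI (median log2 fold change 1.16) and 38 lower in taVNS (median -1.07). Over all genes tested, 7.71% were called higher and 4.91% lower in these comparisons. Of the 75 that reached the filter without PSCI, 33 were called higher (median 0.81) and 28 lower (median -0.89). Without control replicate 1, 2 or 3 the number called higher was 24, 21 or 22 of the 87 and 14, 12 or 13 of the 75, beside 4.99%, 3.48% or 3.03% of all genes. Without taVNS replicate 1, 2 or 3 the number called lower was 11, 13 or 16 of the 87 and 6, 7 or 10 of the 75. Over all genes the same fits called 1.05%, 1.42% or 1.87% lower. Among genes called with a mean of at least 1 CPM, those with the largest differences were Knstrn, Ube2c, Cdca5, Depdc1 and Troap, all of which passed only through PSCI. Knstrn, a kinetochore protein, was 31.4-fold higher in PSCI (adjusted p = 0.00347), and Ube2c, the ubiquitin-conjugating enzyme of the anaphase-promoting complex, 22.7-fold (adjusted p = 0.00237). Not called were, for example, the checkpoint protein Bub3, at 1.22-fold (adjusted p = 0.210), and Wee1, the kinase that holds Cdk1 inactive, at 1.11-fold (adjusted p = 0.563), both chosen after their values were seen. Among 40 DNA replication genes 28 were called higher in PSCI (median 1.37) and 23 lower in taVNS (median -1.18), and of the 37 that reached the filter without PSCI, 27 were called higher (median 1.25) and 22 lower (median -1.18). With the same minimum, the 5 largest differences were those of Mcm5 and Mcm3, of the replicative helicase, Rrm2, of ribonucleotide reductase, the licensing gene Cdt1, and Dtl. Of these, Dtl passed only through PSCI. Mcm5 rose from 1.25 ± 0.392 CPM in control to 27.4 ± 18.1 CPM in PSCI and measured 1.94 ± 0.185 CPM in taVNS (SD, n = 3). Without control replicate 1, 2 or 3 the replication genes called higher numbered 14, 9 or 12, and without taVNS replicate 1, 2 or 3 those called lower numbered 5, 6 or 9.

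Of 23 transcription regulators of the cell cycle, 7 were called higher in PSCI and 6 lower in taVNS, beside 7.71% and 4.91% of all genes. Without E2f7 and E2f8, which passed only through PSCI, the numbers were 5 and 4 of 21. Mybl2, the MuvB partner that activates mitotic genes, was 5.70-fold higher in PSCI (adjusted p = 0.00669) and 6.12-fold lower in taVNS than in PSCI (adjusted p = 0.00949). E2f8, a repressor of the late cell cycle, had no counts in any control library, 1.98, 6.69 and 3.26 CPM in the PSCI libraries and 0.0701, 0 and 0.342 CPM in the taVNS libraries. E2f7, its relative, was 13.4-fold and Rbl1 4.03-fold higher in PSCI. Of 9 tested genes of DNA damage and cell cycle exit, 2 were called higher in PSCI (Gadd45a and Cdkn2c) and 3 lower in taVNS, all among the 8 that reached the filter without PSCI. No gene of these 4 lists was called in taVNS against control.

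**Figure D4:**
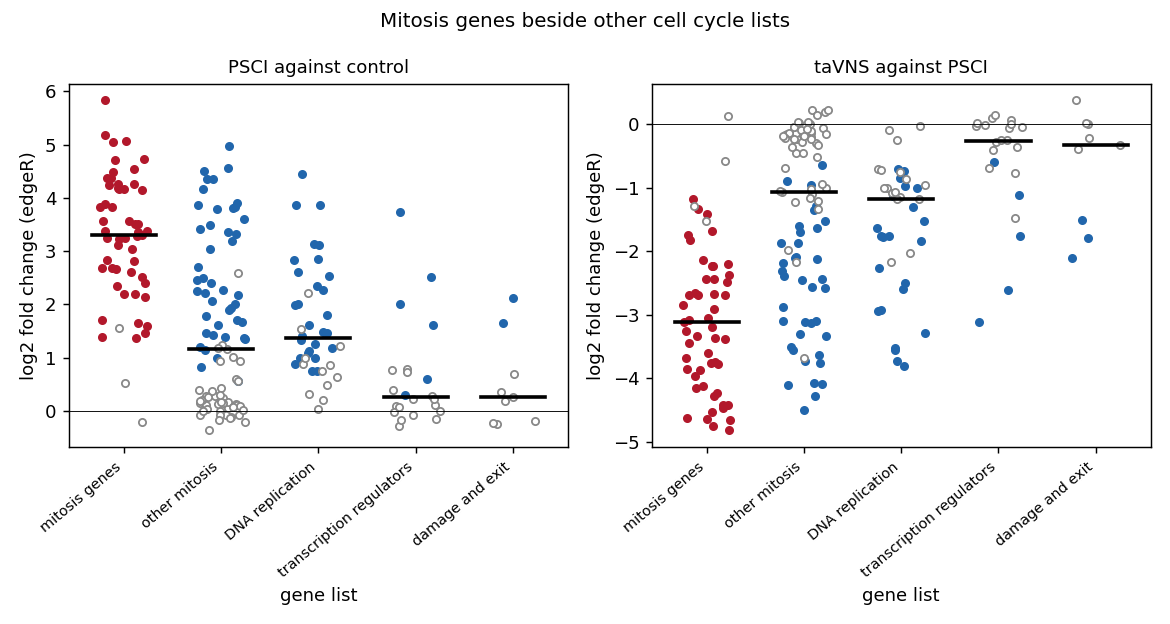
Fitted log2 fold changes (vertical axes) of the mitosis genes and of 4 other cell cycle lists (horizontal axes) in PSCI against control (left) and taVNS against PSCI (right). Points are genes, filled where called and open where not, and bars are medians of the points drawn. E2f8 is left out because control had no counts. The mitosis genes have medians of 3.29 and -3.12 (2.83 and -2.69 over the 41 that reached the filter without PSCI), farther from 0 than those of the other lists.

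Markers of cell types that can divide in this tissue were summed beside the list. Over all genes tested, 7.71% were called higher and 2.14% lower in PSCI. In taVNS against PSCI, 4.91% were called lower and 0.842% higher. The 54 mitosis genes other than Anln summed to 125 to 131 CPM in control, to 427, 1410 and 772 CPM in the PSCI libraries and to 134 to 150 CPM in taVNS. The 12 microglia and macrophage markers summed to 197 to 270 CPM in control, 503, 814 and 638 CPM in PSCI and 293 to 368 CPM in taVNS. Of these 12, 9 were called higher in PSCI, and Tmem119, P2ry12 and Trem2 were not. Their median log2 fold change was 1.57 and the lowest -0.56, and in 1 marker every PSCI library lay below every control library. In taVNS against PSCI, 6 of the 12 were called lower and 1 higher. The 7 neural stem and progenitor markers summed to 126 to 149 CPM, then 231, 546 and 391 CPM, then 134 to 144 CPM. Of the 5 tested, Nes and Fabp7 were called higher, Hes5 lower, and Sox2 and Neurog2 were not called. Eomes and Tfap2c were too low to test. Of the same 5, 2 were called lower and 1 higher in taVNS against PSCI. Astrocyte markers summed to 3242 to 4555 CPM in control, 7478, 10609 and 9565 CPM in PSCI and 3587 to 4478 CPM in taVNS. Of these 7, Gfap and Aqp4 were called higher, and Slc1a3, Aldh1l1, S100b, Gja1 and Sox9 were not. The median log2 fold change was 0.35 over the 7, with the lowest, -0.90, in S100b. Against PSCI, taVNS had 2 of the 7 called lower and 0 higher.

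The ependyma and choroid plexus markers were also higher in sum in each PSCI library, at 9.92 to 21.2 CPM in control, 35.1, 50.2 and 45.9 CPM in PSCI and 17.8 to 21.3 CPM in taVNS. Of the 5 tested, Foxj1 and Ccdc153 were called higher in PSCI (the lowest adjusted p was 0.000241), and Ttr, Tmem212 and Folr1 were not. The 6 oligodendrocyte precursor markers summed to 317 to 381 CPM in control, 323 to 332 CPM in PSCI and 331 to 341 CPM in taVNS, and the 7 immature neuron markers to 411 to 488, 326 to 408 and 390 to 485 CPM. By sum, neither list lay above its control range in PSCI. Of the oligodendrocyte precursor markers 1 of 6 was called lower in PSCI (edgeR adjusted p = 0.0410) and 0 higher. Of the immature neuron markers 1 of 7 was called higher in PSCI (adjusted p = 0.00256) and 1 lower in taVNS against PSCI (adjusted p = 0.0166). Over all genes tested, 7.71% were called higher and 2.14% lower in PSCI, and 4.91% lower in taVNS against PSCI. In lists this short, 1 call says little about the list. By the mean of log2(CPM + 1), immature neuron markers stood at 3.98, 4.35 and 4.32 in the PSCI libraries, against 3.98 to 4.14 in control. T cell markers summed to 3.47 to 9.18 CPM in control, 12.3 to 22.4 CPM in PSCI and 6.08 to 16.8 CPM in taVNS, with 1 of 3 tested called higher in PSCI (Cd8a), and B and plasma cell markers stayed below 1 CPM in every library. In the PSCI group several marker sums followed the order of the mitosis genes, lowest in replicate 1 and highest in replicate 2. These were the microglia, astrocyte, progenitor, ependyma, endothelium, meningeal, oligodendrocyte precursor, immature neuron and B cell sums. The oligodendrocyte precursor sums lay close together (323 to 332 CPM), and the B cell sums were below 1 CPM. The sums of T cell, pericyte and smooth muscle, hippocampal neuron, mature oligodendrocyte and red cell precursor markers did not follow that order. By the mean of log2(CPM + 1), in which each marker weighs the same, the astrocyte and progenitor lists did not keep that order. The part of any cell type in the mitosis values was not tested.

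**Figure D5:**
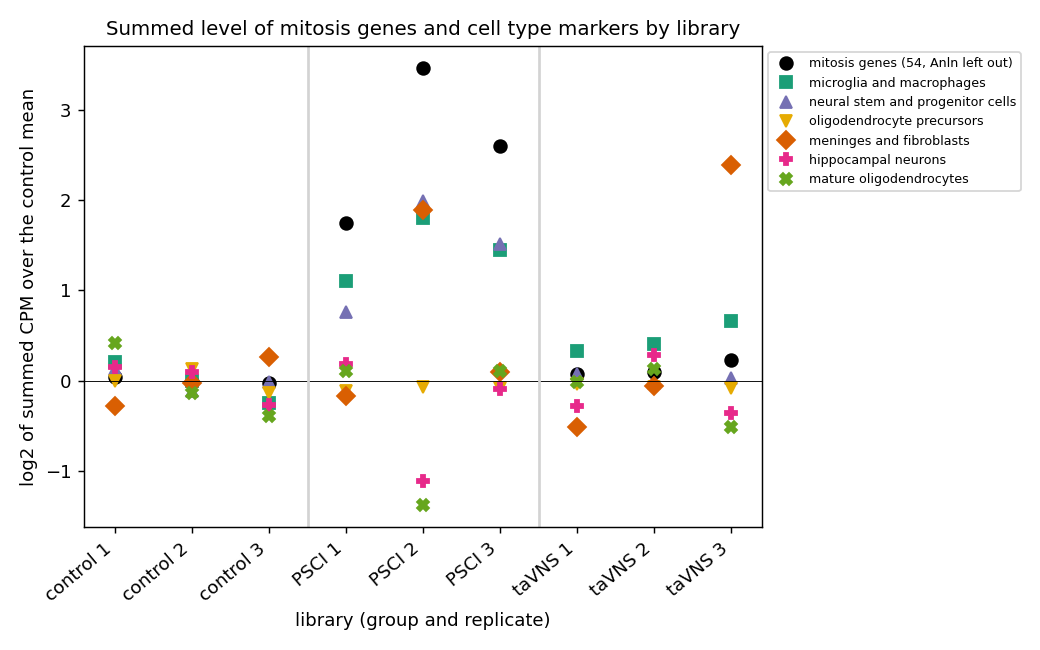
Summed CPM of the 54 mitosis genes other than Anln and of marker lists in each library (horizontal axis), as log2 over the control mean of each list (vertical axis). In the PSCI libraries the mitosis sum (427, 1410 and 772 CPM) lies above its control range, as do the microglia and progenitor sums, while the oligodendrocyte precursor sum stays within its control range.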

How the data were processed

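The authors deposited, for each library, expected counts (reads assigned to genes by a model) and RPKM values (reads scaled for length and depth, 2 decimals). HISAT2 2.0.4, RSEM 1.2.8 and the build mRatBN7.2 are named in the submitters' processing notes, without roles or annotation. Per the labels' protocols, libraries were oligo-dT selected and strand-marked. Between 91.1% and 91.6% of counts per library were whole; counts were rounded. A count of 0 allows up to 0.195 to 0.218 CPM (a floor of 3 counts, counting error only). Genes were filtered with filterByExpr (14840 kept), scaled by TMM and tested by the quasi-likelihood test of edgeR 4.0.16 in 1 fit of 9 libraries on group (6 residual degrees of freedom), with Benjamini-Hochberg adjustment over all genes and a limit of 0.05. The SE printed or drawn with an edgeR log2 fold change is not a fitted standard error. It was derived as the absolute log2 fold change over the square root of the F statistic of the test. R 4.3.3, limma 3.58.1 and DESeq2 1.42.0 served 17 planned and 2 added alternatives. The scripts were tested on simulated data with the same spread setting in every group. That test does not cover the wider spread within PSCI. Values in every library were given for the 3 genes with the highest mean CPM in each role group, the 5 with the lowest adjusted p in taVNS against PSCI and any called in taVNS against control or lower in PSCI. Spc24 and Kif15 were added after their values were seen, as genes not called in a comparison. From other lists the 5 called genes with the largest changes and a mean of at least 1 CPM may be named. A progenitor marker is not reported here and was left out of its list. Members and lists were chosen with earlier results of these data known.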

Additional observations from a re-analysis of the deposited data

How the results depend on the processing

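Under the 17 planned and 2 added alternatives, no result changed direction after being called. Of the fits of single genes in PSCI against control and taVNS against PSCI, 1835 kept their side of the threshold, 219 lost a call and 8 gained one. Of the genes called, 24 of 52 in PSCI against control and 10 of 51 in taVNS against PSCI were called under all 19. A further 12 and 6, which passed only through PSCI, were called under each of the 18 that tested them.

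For taVNS against PSCI, the list's genes called lower numbered 20 by limma-voom, 26 in a fit of only the 2 groups, and 23 to 52 with 1 library left out. For PSCI against control, 1 gene (Anln) was called lower without PSCI replicate 1, and the range with 1 library left out was 0 to 1. On log2(RPKM + 1), where the pseudocount compresses low genes, the list's medians were 1.77 and -1.71.

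Further mitosis genes called higher in PSCI numbered 26 by limma-voom, 26 in a fit of the 2 groups and 21 to 51 with 1 library left out, and DESeq2 called 1 lower. Those called lower in taVNS numbered 14 by limma-voom, 11 in the 2-group fit, 20 without PSCI replicate 2 and taVNS replicate 3, and 11 to 48 with 1 library left out. Replication genes called higher numbered 15 in the 2-group fit and 9 to 37 with 1 library left out. Those called lower in taVNS numbered 9 by limma-voom, 15 on log2(RPKM + 1), 5 in the 2-group fit, 12 without both libraries named above, and 5 to 35 with 1 library left out. The share of all genes called moved as well. In PSCI, 5.96% were called higher by limma-voom, 4.73% in the 2-group fit and 3.03% to 11.7% with 1 library left out. In taVNS against PSCI, 2.72%, 1.53% and 1.05% to 9.31% were called lower, in the same order. On log2(RPKM + 1) that share was 3.86%, and without both libraries 2.1%. Causes of these differences were not tested.

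Deviations from the group mean had correlations of -0.468 to 0.255 between same-numbered libraries and -0.388 to 0.458 between others. No pairing by number was seen, but with 3 libraries per group this cannot exclude a pairing. With a replicate block 47 of the genes were called higher in PSCI and 44 lower in taVNS, and 13 replication genes were called lower in taVNS. Genes under about 1 CPM in control rest on few counts, which limits their folds.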
